A study of Mus musculus with 6 samples.

Results

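Forkhead transcription factors share a winged-helix DNA-binding domain and are named by a class letter and a number. Members of the C, F and L classes pattern mesenchyme and vessels, the O class carries insulin and growth factor signals to the genome, the P class acts as repressors in brain, lung and blood, and Foxm1 drives genes of mitosis. In the inner ear, the cochlea reads sound and the vestibule reads gravity and head motion, and both hold hair cells and supporting cells on a bed of mesenchyme that comes with vessels, nerves and pigment cells. Genes whose symbol is Fox, a letter from a to s and a number were taken from the arrays, leaving out Foxj1 and Foxi1, and each gene was read by its probe set with the highest mean. This gave 35 of the 18193 genes that a probe set names alone, read by 80 probe sets.

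The mice were C3H, wild type and at postnatal day 2 in both groups, and their sensory epithelia filled 3 arrays of cochlea and 3 of vestibule. A vestibular sample pooled several end organs, the lateral and anterior cristae, the utricle and the saccule. Neither tissue was pure epithelium, since neurons and mesenchyme were not removed. Each pool held tissue of 10 to 12 inner ears, so an array reads a mixture of cells from several animals. The labels do not tie arrays to the pools and replicates that the methods describe, so a p-value weighs a difference against array-to-array spread that could in part be technical. In such mixed tissue, fewer cells of a type and less RNA per cell cannot be told apart.

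Array medians lay at 5.6 to 5.7 on the log2 scale, and the spread around the tissue mean was 0.175 to 0.224 (SD) for cochlear and 0.132 to 0.139 for vestibular arrays. Hair cell genes were present in both tissues, with a mean log2 level over 8 genes of 7.20 to 7.46 on the cochlear and 8.79 to 8.84 on the vestibular arrays. Otop1, needed for otoconia, had a mean of 3.90 in cochlea and 8.10 in vestibule. Fgfr3, a receptor of cochlear supporting cells, had means of 10.10 and 6.53, so both ran with the tissue labels. Other markers of their lists were less clear. Oc90, the other otoconia marker measured, had means of 13.90 in cochlea and 14.43 in vestibule. Of 10 supporting cell markers 5 were higher in the cochlea and 2, Otog and S100a1, in the vestibule.

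Of the 35 forkhead genes, 27 had a mean log2 level of at least 4.7 and were tested. The levels of Foxc2, Foxq1 and Foxn2 were higher in the vestibule, those of Foxf2 and Foxp2 were higher in the cochlea, and 22 did not pass. A gene was called at a Benjamini-Hochberg adjusted p under 0.1 in limma and a fold of at least 1.3. The 5 called genes are 18.5% of the forkhead genes tested, against 23.1% of all 14162 genes tested. Towards the vestibule 15.1% of all genes were called, and towards the cochlea 7.97%. The median log2 difference, vestibule minus cochlea, was 0.00 for the forkhead genes and 0.03 for all genes. In 6 of the 27 forkhead genes the arrays of the tissues did not overlap, and in 4579 of all 14162 genes, or 32.3%. Neither count was tested against all genes, and with 27 genes neither is read as a trait of the family. The differences are described below for single members.

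**Figure D1:**
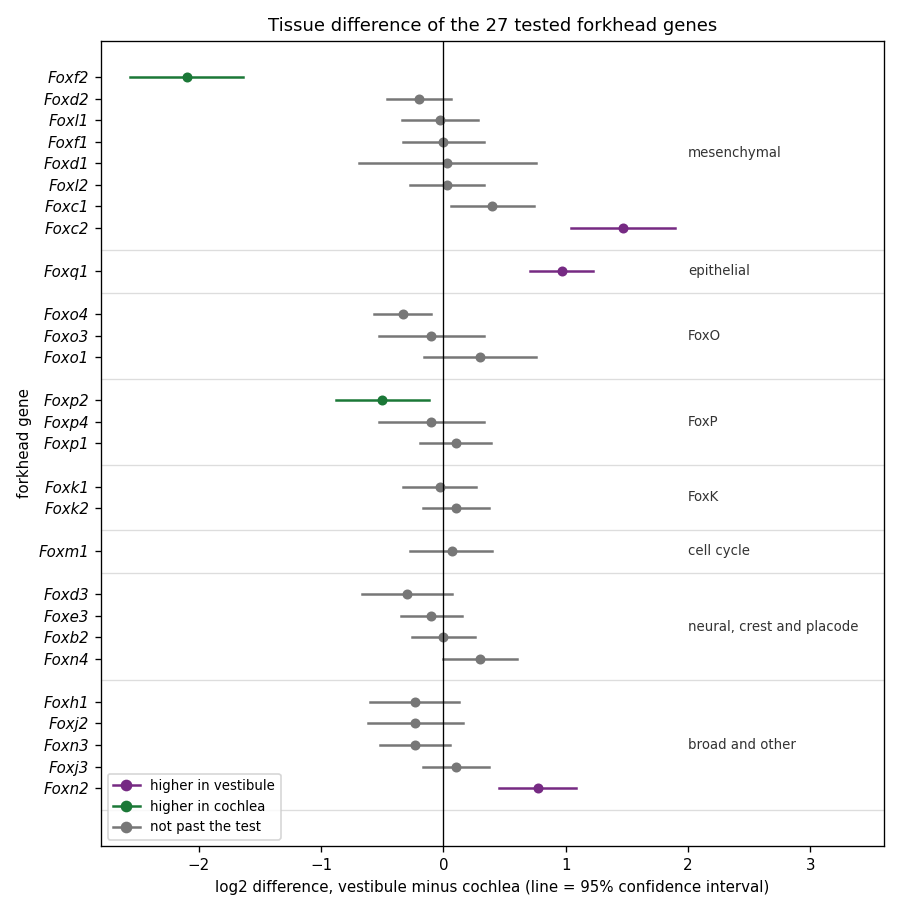
Log2 difference, vestibule minus cochlea, of each of the 27 tested forkhead genes (points) with its 95% confidence interval (lines), grouped by role. Foxf2 lies farthest towards the cochlea at -2.10 and Foxc2 farthest towards the vestibule at 1.47, and most others lie near 0.

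The mesenchymal group held the largest forkhead differences in both directions. Foxf2, a regulator of mesenchyme in gut and palate and of brain pericytes, read 7.3, 8.0 and 7.2 on the cochlear arrays and 5.4, 5.3 and 5.5 on the vestibular arrays. All 3 cochlear arrays thus lay far above the vestibular ones, with cochlear replicate 2 the highest. The log2 difference was -2.10 (standard error 0.20, 95% confidence interval -2.56 to -1.64, limma adjusted p = 1.7e-04), a 4.29-fold higher level in the cochlea. The other probe set of Foxf2 fell under the filter and was not tested.

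Foxc2, which acts in mesenchyme, valves and lymphatic vessels, ran the other way. It read 7.9, 7.5 and 7.3 in the cochlea and 8.8, 9.3 and 9.0 in the vestibule, with no overlap. Its log2 difference was 1.47 (standard error 0.19, 95% confidence interval 1.04 to 1.89, limma adjusted p = 7.8e-04), or 2.76-fold. Foxc1, its close relative with roles in the eye, skull and vessels, also had all vestibular arrays above the cochlear ones, at 9.7, 9.9 and 9.7 against 9.6, 9.4 and 9.1. Its difference of 0.40 missed the test (95% confidence interval 0.06 to 0.74, limma adjusted p = 0.114), and its other probe set stood at 0.43. The interval of Foxc1 ends below that of Foxc2, although the difference between these genes was not tested. Foxc1 passed with the mean of its probe sets (limma adjusted p = 0.087), with a trend (0.0999) and without cochlea replicate 1 (0.075), and did not pass under the other 16 alternatives.

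**Figure D2:**
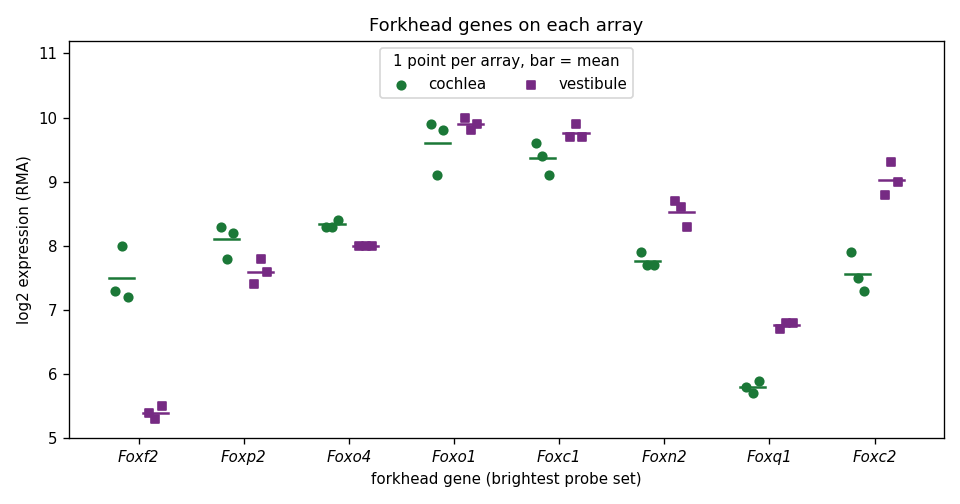
Log2 expression level of 8 forkhead genes, with a point per array (3 of cochlea, circles, and 3 of vestibule, squares) and bars at the means. Levels can be compared within a gene but not between genes. The tissues lie apart for Foxf2, Foxo4, Foxc1, Foxn2, Foxq1 and Foxc2 and overlap for Foxp2 and Foxo1.

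The remaining mesenchymal members showed no difference past the test. Foxf1, which acts in lung and gut vessels, had a log2 level of 5.47 in both tissues, with a difference of 0.00 (95% confidence interval -0.33 to 0.33). Foxl1, a gene of gut mesenchyme, stood at -0.03, Foxl2, known from the ovary, at 0.03 and Foxd2 at -0.20. Foxl1 and Foxd2 had mean levels of 4.92 and 4.90, near the filter's 4.7. Foxd1, a gene of kidney stroma, had the largest spread of any forkhead gene within a tissue. It read 6.9, 7.5 and 6.0 in the vestibule (SD 0.75 over 3 arrays) against 6.6, 6.9 and 6.8 in the cochlea (SD 0.15 over 3 arrays). The difference of Foxd1 was 0.03 with a wide interval of -0.69 to 0.76, and without vestibule replicate 2 it turned to -0.32, still not called.

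Markers of the cell types that carry such factors also differed between the tissues. Of 10 mesenchyme markers 5 were higher in the vestibule and 1, Lum, in the cochlea, with a mean log2 level of 10.14 to 10.51 on cochlear and 10.65 to 10.80 on vestibular arrays. Of 9 tested endothelial markers 7 were higher in the vestibule and 1, Emcn, in the cochlea, with mean levels of 6.61 to 6.72 and 7.64 to 7.88. Of 7 tested pericyte and smooth muscle markers 4 were higher in the vestibule and limma called 0 towards the cochlea (with 0 at unadjusted p under 0.05 as well), with mean levels of 7.11 to 7.44 and 7.79 to 7.97. Foxc2 ran with the balance of these lists and Foxf2 ran against it, and their part in either result was not tested. Of 6 tested cartilage and bone markers 4 were higher in the vestibule and 1, Matn1, in the cochlea, while Col2a1 at -0.17 was not called.

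Foxf2 lies between Foxq1 and Foxc1 on chromosome 13, with no other protein-coding gene annotated between them. These neighbours went different ways, since Foxq1 was higher in the vestibule and Foxf2 in the cochlea. The flanking genes Exoc2 and Gmds stood at 0.07 and 0.27 and were not called. On chromosome 8, Foxf1, Foxc2 and Foxl1 lie in a similar row with Mthfsd between Foxf1 and Foxc2. There Foxc2 was called alone among the forkhead genes, beside 0.00 for Foxf1 and -0.03 for Foxl1, while Mthfsd stood at -0.37 and was not called. Irf8, a macrophage factor on the far side of Foxf1, was higher in the vestibule at 1.13. Of 8 macrophage markers 7 were higher in the vestibule too, with mean levels of 7.08 to 7.44 on cochlear and 8.69 to 8.96 on vestibular arrays. Foxd2 and Foxe3 on chromosome 4 are the remaining adjacent forkhead genes, and neither was called. Beside Foxd2, Trabd2b was called towards the cochlea at -0.47 (limma adjusted p = 0.0339), and Cmpk1 beside Foxe3 stood at 0.17 and was not called.

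**Figure D3:**
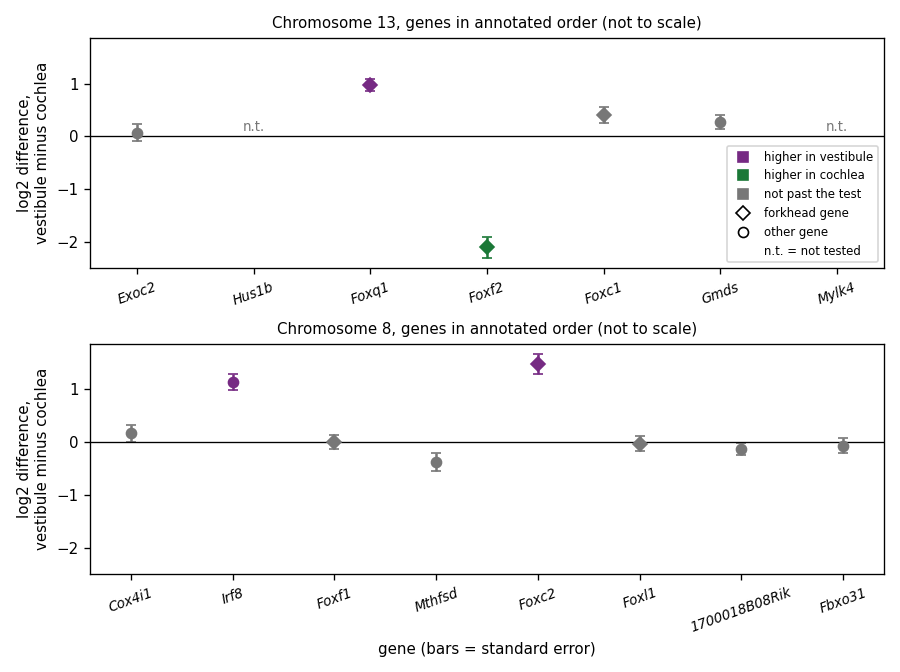
Log2 difference, vestibule minus cochlea, with standard error, of the forkhead genes (diamonds) and their nearest protein-coding neighbours (circles) on chromosomes 13 and 8, in annotated order and not to scale. On chromosome 13, Foxq1 at 0.97 and Foxf2 at -2.10 stand on opposite sides of 0, and on chromosome 8 Foxc2 at 1.47 stands beside Foxl1 and Foxf1 near 0.

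Among the epithelial members Foxq1 was the one that could be tested. Foxq1, required for normal hair shafts and mucus of the stomach, read 5.8, 5.7 and 5.9 in the cochlea and 6.7, 6.8 and 6.8 in the vestibule. These arrays were the most tightly grouped of any called forkhead gene. The log2 difference was 0.97 (standard error 0.11, 95% confidence interval 0.71 to 1.22, limma adjusted p = 4.5e-04), or 1.95-fold, and its other probe set, of the less specific suffix _x_at, was called too, at 1.07. The pioneer factor genes Foxa1, Foxa2 and Foxa3 and the thymic gene Foxn1 fell under the filter.

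The insulin-responsive FoxO genes did not pass at their brightest probe sets. Foxo1 read 9.9, 9.1 and 9.8 in the cochlea and 10.0, 9.8 and 9.9 in the vestibule. Cochlear replicates 1 and 3 lay within the vestibular range, and cochlear replicate 2 alone lay well below it. The difference was 0.30 (95% confidence interval -0.16 to 0.76, limma adjusted p = 0.381), and without cochlea replicate 2 the difference of Foxo1 was 0.05. That probe set carries the suffix _s_at, which marks probes shared between transcripts. Of the other 3 probe sets of Foxo1, 2 were called towards the vestibule, at 0.57 (limma adjusted p = 0.0424) and 0.53 (limma adjusted p = 0.0784). In both of these all vestibular arrays lay above the cochlear ones. The dimmest probe set stood at 0.07. The call of Foxo1 therefore depends on the probe set chosen, and with any called probe set the forkhead genes called number 6.

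Foxo4 was the steadiest of the class, at 8.3, 8.3 and 8.4 in the cochlea and 8.0 on each vestibular array. The tissues did not overlap, and its difference of -0.33 had an adjusted p of 0.0631 in limma. It stayed just outside the call because the fold was 1.26, under the minimum of 1.3. Foxo3 stood at -0.10 (95% confidence interval -0.53 to 0.33, limma adjusted p = 0.774).

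FoxO proteins are held in the cytoplasm when the kinase Akt phosphorylates them and raise genes of cell cycle arrest, stress defence and metabolism when they enter the nucleus. In a list of genes upstream of FoxO, such as receptors, adaptors and kinases, 1 of 14 tested was called towards the vestibule and 0 towards the cochlea in limma (0 of them at unadjusted p under 0.05). That was Irs1, the insulin receptor substrate, which read 10.3, 10.3 and 10.0 in the cochlea and 11.5, 11.4 and 11.4 in the vestibule (log2 difference 1.23, limma adjusted p = 2.2e-04). The receptor genes Insr and Igf1r both stood at -0.07, and the kinase genes Akt1 and Akt2 at 0.03 and 0.07. The called share of the upstream list was 7.14%, against 23.1% of all genes, and its median was -0.03.

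In the list of known FoxO targets 6 of 20 tested genes were higher in the vestibule, 2 were higher in the cochlea and 12 did not pass, with a median of 0.23 against 0.03 for all genes. The called targets are 40% of those tested, against 23.1% of all genes, and over the whole FoxO list, upstream genes included, the share was 26.5%. Klf2, a factor of quiescent endothelium, led with 6.6, 6.1 and 6.4 in the cochlea and 8.0, 8.4 and 7.9 in the vestibule (log2 difference 1.73, limma adjusted p = 2.3e-04). The endothelial markers, of which 7 of 9 were higher in the vestibule, had a median of 1.20, and their part in the value of Klf2 was not tested. Fbxo32, a ubiquitin ligase of muscle wasting, stood at 1.67, Pdk4, a brake on pyruvate oxidation, at 1.27, and Txnip, an inhibitor of thioredoxin, at 1.07. The cell cycle inhibitor gene Cdkn1a stood at 0.80 and the stress gene Sesn1 at 0.73. The members that went the other way were Cdkn1b, the inhibitor that holds cochlear supporting cells out of the cell cycle, at -0.90 (limma adjusted p = 0.00102), and Trim63, another ligase of muscle wasting, at -0.47. Trim63 and Fbxo32, often raised together in muscle, thus differed in direction here. Of the skeletal muscle markers 3 of 7 could be tested, and 1, Des, was called, at -0.63. No other member of the upstream or target lists was called at its brightest probe set, among them the antioxidant genes Cat at 0.00 and Sod2 at 0.27. Klf6 at 0.63, Cited2 at 0.60 and Bcl6 at 0.53 also missed, with limma adjusted p-values of 0.114, 0.176 and 0.126. Each of them was called under some of the alternatives. Many of these targets answer to factors other than FoxO, so their counts do not measure FoxO activity.

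**Figure D4:**
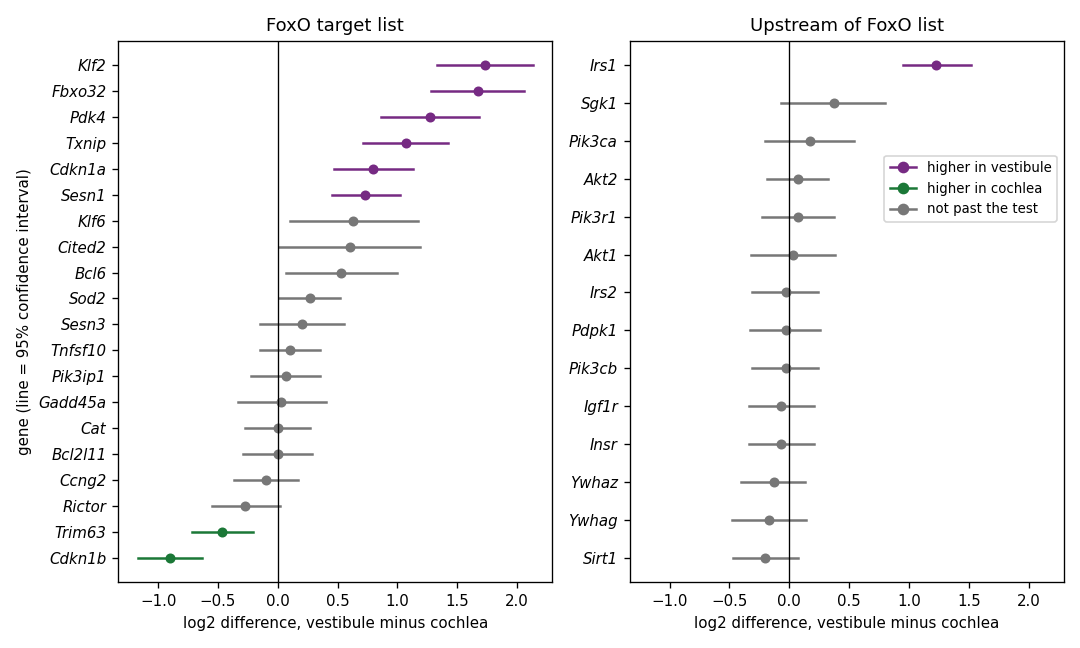
Log2 difference, vestibule minus cochlea, with 95% confidence interval, of 20 tested genes of the FoxO target list (left) and 14 of the list upstream of FoxO (right). Klf2, Fbxo32 and Pdk4 lie farthest towards the vestibule and Cdkn1b farthest towards the cochlea. Upstream of FoxO only Irs1 was called at its brightest probe set.

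The forkhead core site GTAAACA, on either strand, was searched in RefSeq promoter windows of 300 bases (build GRCm38.p6), which run from 250 bases before a transcript start to 50 after it. At least 1 window of 4.05% of all 27025 genes held it. Among 33 genes of FoxO signalling with a window 5 held it, or 15.2%, made up of 4 of 21 targets and 1 of 12 upstream genes. The list holds known FoxO targets and had 48 windows for its 33 genes, against 32851 for all 27025. These shares are therefore not like for like. The 5 sites are shown because they pair a possible binding sequence with an expression value in these tissues. Each line gives 30 bases on the strand of the gene, with the site in capitals, read as GTAAACA or as its reverse complement TGTTTAC.
Txnip, chr3:96557825-96557854, plus strand: ttggaggcctgGTAAACAagggccaagtag
Sesn1, chr10:41810585-41810614, plus strand: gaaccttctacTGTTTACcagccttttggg
Trim63, chr4:134314915-134314944, plus strand: cagtctgttctTGTTTACgacccccacggc
Bcl2l11, chr2:128125800-128125829, plus strand: aagacactaggGTAAACAcgccggggtggg
Akt1, chr12:112675027-112675056, minus strand: atctaccctctTGTTTACactcctggtgaa
Beside these sites the genes did not share a direction. Txnip and Sesn1 were higher in the vestibule, Trim63 was higher in the cochlea, and the cell death gene Bcl2l11 and Akt1 stood at 0.00 and 0.03 and were not called. In Txnip the site begins 121 bases before the start, in Trim63 194, in Bcl2l11 227 and in Akt1 161, while in Sesn1 it lies just after the start. Of 23 forkhead genes with a window 1, Foxa1, held the site, or 4.35%. Of 14 cofactor genes 1, Ctbp2, held it, or 7.14%, and of 16 Foxm1 targets 0 held it. A match of letters in a window is a description and does not show that a factor binds there.

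In the FoxP class, Foxp2, a repressor known for its part in speech and neural circuits, read 8.3, 7.8 and 8.2 in the cochlea and 7.4, 7.8 and 7.6 in the vestibule. The lowest cochlear array equalled the highest vestibular one. The difference was -0.50 (standard error 0.16, 95% confidence interval -0.88 to -0.12, limma adjusted p = 0.0785), or 1.41-fold. The other 3 tested probe sets of Foxp2 lay at -0.47 to -0.30 and were not called. The call was lost without cochlea replicate 1 (limma adjusted p = 0.234) or 3 (0.223), without vestibule replicate 1 (0.287), 2 (0.106) or 3 (0.222), and without a filter on low values (0.101). Of 8 neuronal markers 7 were also higher in the cochlea, with mean log2 levels of 8.29 to 8.82 on cochlear and 7.06 to 7.31 on vestibular arrays, and their part in the value of Foxp2 was not tested.

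Foxp1 stood at 0.10 (95% confidence interval -0.19 to 0.39) and was read by 7 tested probe sets, more than any other forkhead gene, which ran from -0.20 to 0.20 with no call. Foxp4 stood at -0.10, with 7.6, 8.0 and 7.2 in the cochlea and 7.5 on every vestibular array. Foxp3, the factor of regulatory T cells, fell under the filter, and limma called 0 of the 3 tested T cell markers, with 0 at unadjusted p under 0.05.

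Foxm1 did not differ past the test, at 6.2, 6.7 and 6.6 in the cochlea and 6.6, 6.5 and 6.6 in the vestibule (log2 difference 0.07, 95% confidence interval -0.27 to 0.40, limma adjusted p = 0.804). Its other tested probe sets stood at 0.17 and 0.23. Of 17 tested target genes of Foxm1 2 were higher in the vestibule, 1 was higher in the cochlea and 14 did not pass, with a median of 0.23 against 0.03 for all genes. The called share of 17.6% lay below the 23.1% of all genes. Nek2, a kinase of centrosome separation, had the largest difference of any gene in the forkhead lists, with 5.9, 6.2 and 6.2 in the cochlea and 9.5, 9.2 and 9.3 in the vestibule. This came to 3.23 (standard error 0.14, limma adjusted p = 2.3e-06). The phosphatase gene Cdc25b stood at 0.77 (limma adjusted p = 0.00423). The motor protein gene Cenpe was called towards the cochlea at -0.40 (limma adjusted p = 0.0904), a call that was lost on leaving out any 1 array, with adjusted p-values of 0.116 to 0.239. The targets not called ran from Skp2 at -0.43 to Ccnb2 at 0.57, with Plk1 at -0.07, Birc5 at 0.07 and Top2a at 0.23 between them. A difference as large as that of Nek2 was thus not shared by the list. With array weights Aurka, Ccnb2, Cdk1 and Cenpf were also called towards the vestibule. The probe set of Nek2 carries the suffix _s_at.

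**Figure D5:**
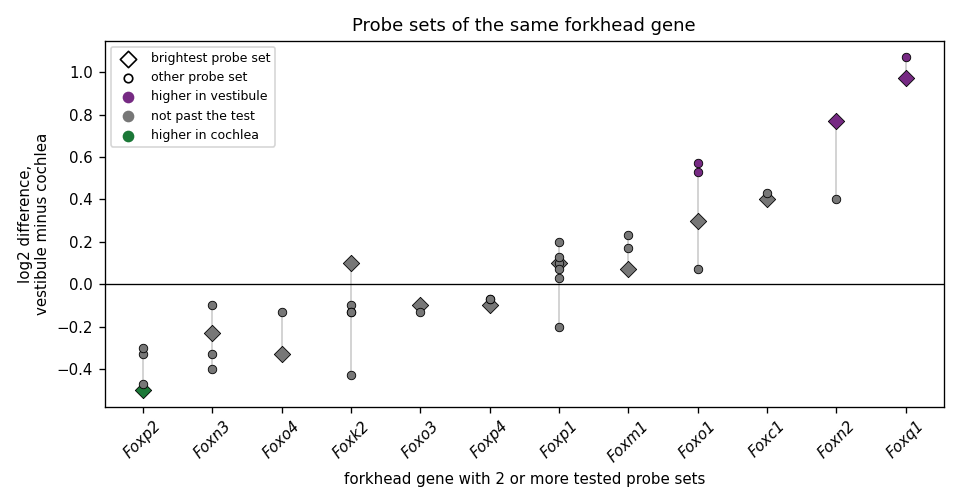
Log2 difference, vestibule minus cochlea, of each tested probe set of the 12 forkhead genes with 2 or more, with the brightest probe set as a diamond. Signs are mixed for Foxk2 and Foxp1, and the called probe sets of Foxo1 are not its brightest.

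Probe sets of a forkhead gene mostly pointed the same way. Of 55 tested probe sets 8 were called, while of all 29554 tested probe sets 5741 were called, or 19.4%. Among the forkhead genes, 12 had 2 or more tested probe sets. In 10 of these the probe sets shared a sign. The exceptions were Foxp1 and Foxk2, a regulator of autophagy and glycolysis whose 5 probe sets ran from -0.43 to 0.10 with no call. Foxn2 had probe sets at 0.77 and 0.40, of which the brighter was called. It read 7.9, 7.7 and 7.7 in the cochlea and 8.7, 8.6 and 8.3 in the vestibule, without overlap, a 1.70-fold difference (standard error 0.14, 95% confidence interval 0.45 to 1.08 on the log2 scale, limma adjusted p = 0.00531). Foxn3, a checkpoint repressor, had a difference of -0.23 (95% confidence interval -0.52 to 0.05) and 4 probe sets below 0, none called.

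Genes with roles in other tissues showed small differences. Foxn4, a gene of retinal progenitors, stood at 0.30 (limma adjusted p = 0.178). Foxd3, a neural crest factor that also marks Schwann cells, stood at -0.30 (limma adjusted p = 0.275), while of 6 Schwann cell markers, Foxd3 among them, 2 were called towards the vestibule and 1 towards the cochlea. All 7 melanocyte markers, another crest lineage, were higher in the vestibule. The lens gene Foxe3 stood at -0.10, Foxb2 at 0.00, and the Smad partner gene Foxh1 and Foxj2 at -0.23 each. Foxj3 stood at 0.10 and Foxk1 at -0.03. The mean levels of Foxb2 and Foxd3, 4.80 and 5.12, lay close above the filter's 4.7. Over the 22 tested forkhead genes that were not called, the 95% confidence intervals reached from -0.69 to 0.76, so a difference of 1 on the log2 scale lies outside every one of them. The 8 genes under the filter, Foxa1, Foxa2, Foxa3, Foxb1, Foxd4, Foxn1, Foxp3 and Foxs1, read 3.7 to 5 on single arrays, with tissue differences of -0.23 to 0.20 and overlapping arrays in each.

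Most cofactors through which forkhead proteins act did not pass the test. Of 19 tested, limma called 2 towards the vestibule and 0 towards the cochlea, with a median of 0.10. This is 10.5% of the list, against 23.1% of all genes. At unadjusted p under 0.05 these numbers were 3 and 0, and by the t-test with adjustment 1 and 0. Ctbp2, a corepressor whose gene also encodes the hair cell ribbon protein Ribeye, read 9.1, 8.8 and 8.7 in the cochlea and 9.6, 9.6 and 9.8 in the vestibule (log2 difference 0.80, limma adjusted p = 0.00423). Of 8 hair cell markers 7 were higher in the vestibule, and their part in the value of Ctbp2 was not tested. Tle6, a relative of the Groucho corepressors, stood at 0.63 (limma adjusted p = 0.0290), a call lost without cochlea replicate 1 (0.103) or vestibule replicate 2 (0.116) or 3 (0.142), and in the t-test (0.143). Tle1, whose protein binds forkhead repressors, reached an adjusted p of 0.0799 in limma at 0.33, under the minimum fold.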

How the data were processed

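The authors amplified total RNA with the Affymetrix two-cycle kit, hybridised it to Affymetrix mouse expression arrays and summarised probes by RMA, which normalizes by quantiles; the submitters' processing notes name RMA and MAS5 without versions. The deposited values are log2 levels with 1 decimal and were not scaled again. Probe sets were named through the GEO platform annotation, with symbols updated by Entrez number for 34741 of the 34945 probe sets with 1 gene. The 932 probe sets with several genes and the 9160 with none named no gene, and 64 control probe sets were left out. Genes without a probe set of their own in that table are not analysed here.

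In place of Present calls, a minimum level was set. The 29554 probe sets with a mean log2 value of at least 4.7 were tested two-sided by lmFit and eBayes of limma 3.58.1, run under R 4.3.3, with Benjamini-Hochberg adjustment over all of them. Named in the text are called members, the measured members of the mesenchymal, FoxO, FoxP and cell cycle groups, members whose probe sets disagree or whose arrays spread the most, and leading called genes of the other lists. Further genes were chosen after their values were seen. The members and the lists (FoxO signalling, Foxm1 targets, cofactors and cell type markers, from textbook knowledge) were chosen with earlier results of these data known. Supporting cell markers (of 10, limma called 5 towards the cochlea and 2 towards the vestibule) and otoconia markers (2 of 2 higher in the vestibule) served as a check of the tissue. The limma step was tested on simulated data. Figures were drawn with matplotlib 3.10.9 under Python 3.11.15. The number of arrays, 3 per tissue, limits the precision. Alternatives covered the filter, scaling, test, replicate block, each array left out, thresholds, choice of probe set and rounding.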

Additional observations from a re-analysis of the deposited data

How the results depend on the processing

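Foxf2, Foxc2, Foxq1 and Foxn2 were called in the same direction under all 19 alternatives, so the forkhead genes higher in the vestibule numbered at least 3 throughout. The call of Foxp2 was lost under 9, which left 1 forkhead gene higher in the cochlea without a filter, in the plain t-test, with the replicate block, at an adjusted p under 0.05, and, over the arrays left out, 1 to 2. The Foxm1 targets higher in the cochlea fell to 0 without a filter, in the t-test, with a trend, with the block and at an adjusted p under 0.05, and were 0 without any 1 array. Those higher in the vestibule rose to 6 with array weights and were 2 to 4 with 1 array left out, the 4 without cochlea replicate 2. Cofactors higher in the vestibule numbered 1 in the t-test and 1 to 2 with 1 array left out. FoxO signalling genes higher in the vestibule numbered 7 to 9, the 9 without cochlea replicate 1, and those higher in the cochlea 2 throughout. Foxo4 was called at -0.41 after a second quantile normalization.

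Differences near 0 changed sign without a call. After a second quantile normalization Foxd1 stood at -0.01, Foxk2 at -0.01, Foxp1 at -0.01, Foxl1 at 0.01 and Akt1 at -0.04. Akt1 stood at -0.05 with array weights, and Foxk2 at -0.14 with the mean of its probe sets. With 1 array left out, Foxd1 ranged from -0.32 to 0.43, Foxk1 from -0.12 to 0.03, Foxl1 from -0.15 to 0.05, Foxl2 from -0.08 to 0.12, Foxm1 from -0.08 to 0.17, Foxo3 from -0.28 to 0.07, Foxp4 from -0.30 to 0.10 and Akt1 from -0.13 to 0.12. The cause of these changes was not tested. The deviations of same-numbered arrays correlated at 0.22, 0.15 and 0.00 for replicates 1, 2 and 3. Cochlea replicates 1 and 2 correlated best with the vestibule array of their own number. Cochlea replicate 3 correlated best with vestibule replicate 2, at 0.03. Whether the numbers pair the arrays is not decided by this, since deviations from a mean of 3 arrays are tied to each other. The deposited values give no measure of background, so how far dim probe sets stand above it is unknown.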
